A study of Mus musculus with 4 samples.

Results

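The cells described here are macrophages of transplanted mouse hearts that carry Cx3cr1 and no Folr2 transcript. They were chosen by counts of unique molecular identifiers (UMIs), each of which tags an RNA molecule captured from a cell. A member had over 200 detected genes, under 20% mitochondrial UMIs, at least 5 UMIs of C1qa, at least 1 UMI of Cx3cr1, under 5 of Cxcl9, under 2 of Mki67, and 0 of Folr2, Cd3e and Cdh5. The rule found 529 members among 44626 cells that passed on genes and mitochondrial share, a fraction of 1.19% with an exact 95% interval of 1.09% to 1.29%. These 7 genes chose the cells, so their levels are given only as a description.

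The study transplanted hearts into the abdomen of C57BL/6J recipients and collected the grafts on day 5. There were 2 allogeneic grafts, for which the strain label is Balb/C, and 2 syngeneic grafts labelled C57BL/6J. The mice were male and 8 to 10 weeks old, and every heart was digested with enzymes before droplet sequencing of single cells with 3′ chemistry. The counts of all grafts came as 1 merged matrix of 53824 cell barcodes, in which a suffix from 1 to 4 on each barcode marks the library. No source used here pairs a suffix with a graft, so libraries are given by number, graft types were not compared, and no test between cells was made. Intervals below are exact 95% intervals (Poisson for levels, Clopper-Pearson for shares of cells) and cover counting error only.

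Cx3cr1 encodes the receptor for fractalkine, a chemokine that is tethered to the surface of endothelial and other cells. It is carried by patrolling monocytes, by microglia and by subsets of tissue macrophages, and in the heart it has been used to follow macrophages that arise from blood monocytes as well as some that are resident. Folr2, a folate receptor, is known from long-lived perivascular macrophages that also carry Lyve1, Timd4 and Mrc1, whereas macrophages that lack it often carry Ccr2 and MHC class II, the molecules that present peptides to CD4 T cells. In mm10 coordinates Cx3cr1 lies on chr9:119901616-120069879 on the minus strand and Folr2 on chr7:101839988-101857194 on the minus strand.

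The members were unevenly spread over the libraries. Library 1 held 107 members of 10322 passing cells (1.04%, interval 0.850% to 1.25%), library 2 held 8 of 13154 (0.0608%, 0.0263% to 0.120%), library 3 held 404 of 9850 (4.10%, 3.72% to 4.51%) and library 4 held 10 of 11300 (0.0885%, 0.0424% to 0.163%). Libraries 1 and 3 thus supplied nearly all members, and values for libraries 2 and 4 rest on 8 and 10 cells. Total UMIs per library were 96020294, 115162601, 138892048 and 166079145 in library order, and median UMIs per cell barcode 4807.5, 4759, 6319 and 9784. The part of depth in the spread of members over the libraries was not tested. Among cells with at least 5 C1qa UMIs, the members made up 24.9%, 2.43%, 33.5% and 0.349% in library order. Of 2233 passing cells with a Cx3cr1 UMI, 1380 had at least 5 C1qa UMIs, and the members held 29.1% of all Cx3cr1 UMIs of passing cells.

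A member had a median of 13148 UMIs (range 1214 to 67811) and 3184 genes (546 to 8058). Its median Cx3cr1 count was 5 UMIs (1 to 30) and its median C1qa count 74 (5 to 299). The limit on C1qa fell in a sparse stretch, with 4 cells at 4 UMIs and 3 cells at 5 that met the rest of the rule. The limits on Cx3cr1 and Folr2 fell in a dense one: 521 cells had 0 Cx3cr1 UMIs against 72 with 1, and 114 cells that met all else had 1 Folr2 UMI. Mki67 at 1 UMI kept 60 cells and at 2 left out 13, Cdh5 at 1 UMI left out 111 cells, Cd3e at 1 left out 1, and Cxcl9 stood at 4 UMIs in 4 cells kept and at 5 in 3 left out. Barcode sequences found in more than 1 library numbered 308, 6 members carried one of them, and no 2 members shared one.

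The label was then checked against its marker genes, as the UMIs of a gene per 1000000 non-mitochondrial UMIs summed over the members of a library (CPM). Trem2, a lipid receptor of macrophages, stood at 618, 257, 735 and 318 CPM in libraries 1 to 4 and had a UMI in 90.4% of members. Fcrls, an Fc receptor-like gene first known from microglia, stood at 478, 64.3, 992 and 45.4 CPM and had a UMI in 81.7%. Cx3cr1, which the rule used, stood at 396, 328, 472 and 143 CPM. The markers of the label were therefore high in libraries 1 and 3, whereas in libraries 2 and 4 Fcrls was at or below 64.3 CPM, with upper limits of 118 and 93.5 CPM. Endothelial cells of the same libraries (at least 3 Cdh5 UMIs, no C1qa or Cd3e) served as a reference for free RNA, which gives UMIs in cells that do not express a gene. After every cell was thinned to 5000 UMIs, 0.428% of them in library 1 and 3.07% in library 3 had an Fcrls UMI, against 58.2% and 77.8% of members. For Trem2 the reference shares were 1.14% and 2.38%. Before thinning, the median depth of the reference was 6490 UMIs in library 1 and 8690 in library 3, against 12492 and 13097 for members.

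**Figure D1:**
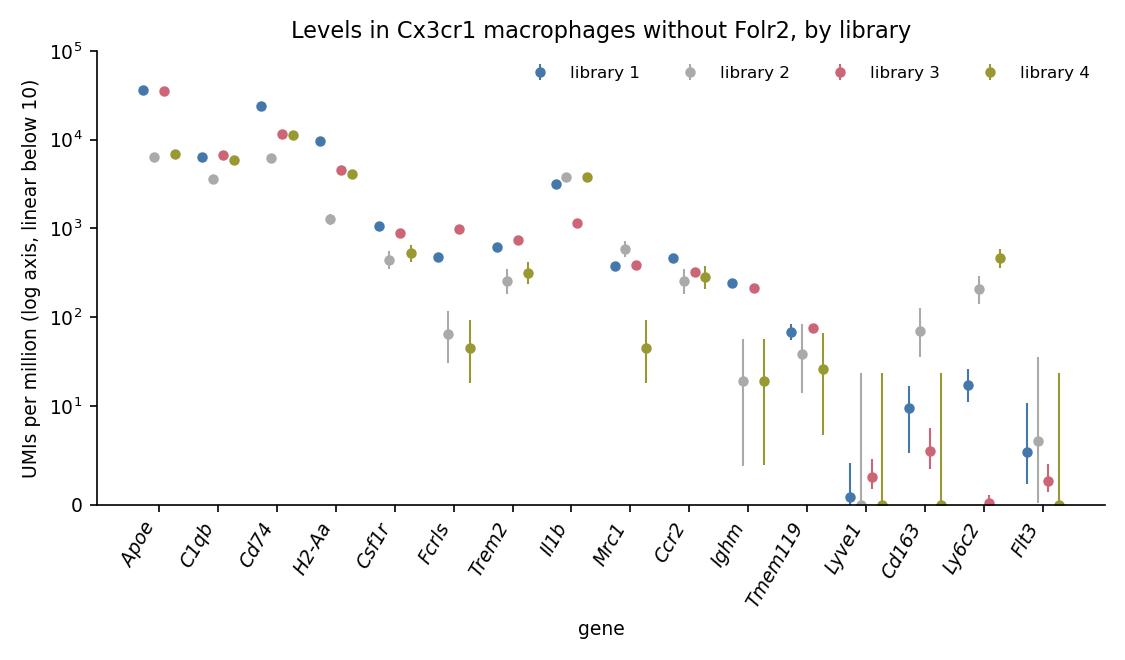
Levels of selected genes in the members of each library, in CPM on an axis that is logarithmic above 10 and linear below, with exact 95% Poisson intervals as bars. Fcrls, Trem2 and Apoe lie higher in libraries 1 and 3, which hold 107 and 404 members, than in libraries 2 and 4, which hold 8 and 10.

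General macrophage genes were present in all 4 libraries. C1qb, a chain of the complement starter C1q, stood at 6351, 3590, 6718 and 5971 CPM. Csf1r, the receptor for the growth factor that macrophages need to survive, stood at 1056, 444, 898 and 525 CPM. Its thinned share was 98.9% of members in library 1 and 97.8% in library 3, against 1.85% and 3.45% of the endothelial reference. Apoe, a lipid carrier, stood at 36543 and 35124 CPM in libraries 1 and 3 and at 6408 and 6917 in libraries 2 and 4.

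Of 13 genes known from microglia, the macrophages of the brain, 10 had a UMI in at least 10% of members. The purine receptor P2ry6 stood at 213, 180, 271 and 130 CPM. Tmem119 was low at 69.0, 38.6, 75.2 and 25.9 CPM, and P2ry12, another purine receptor, reached 28.7 CPM over all members. Sall1, a transcription factor of microglia, Siglech and Slc2a5 had 1 UMI each, so the members shared part of the list and nearly lacked these genes at this depth. The list took 0.223%, 0.0746%, 0.367% and 0.0797% of UMIs in library order. Sparc, its most abundant member at 881 CPM, is also a fibroblast gene, and stood at 202 CPM once the 19 cells of subcluster 5, described below, were left out.

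Markers of other cell types were mostly near 0. Among T cell markers, Cd3e was at 0 by the rule and the most abundant, Trac, stood at 1.00 CPM. Among B cell markers Cd79a stood at 1.00 and Ms4a1 at 0.574 CPM, and Cd79b was the most abundant at 33.4. Among dendritic cell markers Flt3 stood at 3.01 CPM, Zbtb46 at 1.86, Cd209a at 1.00, and Xcr1 and Clec9a at 0.430 each. Ccr7, the most abundant of that list at 16.9 CPM, had a UMI in 3.21% of members. Among NK cell markers Gzma was the most abundant at 18.4 CPM. Cd79b was the only marker of these 4 lists with a UMI in at least 10% of members. Apart from Cd79b, the listed markers of lymphocytes and dendritic cells were thus at or below 18.4 CPM in the members, although class II genes were high.

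Monocyte genes divided the libraries. Ly6c2, a surface protein of classical monocytes, stood at 17.4, 206, 0.187 and 460 CPM, and Plac8 at 105, 25.7, 14.2 and 1335 CPM. Both were near 0 in library 3 and high in the 10 cells of library 4. The endothelial reference of library 4 had 157 CPM of Ly6c2 and 548 of Plac8, with a UMI in 39.7% and 89.5% of its cells, and the part of free RNA there was not tested. Among 8 genes of nonclassical monocytes, which also carry Cx3cr1, Nr4a1 was the most abundant at 334 CPM, and Spn stood at 23.8. Ace stood at 19.8 CPM, with 228 in subcluster 5, described below, and at most 6.50 in the other subclusters. The 4.30 CPM of Ear2 came from 1 cell. Among transcription factors Spi1, needed for all macrophages, stood at 364, 637, 480 and 467 CPM, and Mef2c, a factor of the MEF2 family, at 259, 57.9 and 215 CPM in libraries 1 to 3 and on 2 UMIs in library 4.

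Transcripts of other heart cells were measured as a sign of free RNA or of droplets with more than 1 cell. Fibroblast genes took 0.216%, 0.0225%, 0.339% and 0.0402% of members' UMIs in library order, led by Col3a1 at 841 CPM, or 169 CPM without the 19 cells of subcluster 5, described below. After thinning, a Col3a1 UMI was found in 37.4% of members of library 1 and 58.6% of library 3, against 44.8% and 61.1% of endothelial cells. Gsn went the other way, at 80.2% and 69.9% of members against 63.8% and 31.1%, and the part of free RNA in the fibroblast list was not tested. Cardiomyocyte genes took 0.0564%, 0.00643%, 0.0185% and 0.000648%, led by Myl2 at 68.0 CPM. Endothelial genes took 0.0356%, 0.0734%, 0.0328% and 0.0123%, led by Fabp4 at 226 CPM, with Cdh5 at 0 by the rule. Erythroid genes took 0.387% in library 1 and at most 0.00643% in the others. Most of the excess came from 1 cell of library 1 with 4775 hemoglobin UMIs among 7274, which was 89.2% of all hemoglobin UMIs of members, while the next cell had 16. Without that cell hemoglobin genes took 0.0236% of UMIs in library 1 and 0.00481% in library 3.

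The members of libraries 2 and 4 stood apart from those of libraries 1 and 3 and from each other. In library 2, F13a1, a clotting factor of macrophages, stood at 1512 CPM against 94.1, 111 and 64.8 in libraries 1, 3 and 4. The neutrophil gene S100a8 stood at 1165 CPM in members of library 2, and at 2148 CPM in its endothelial cells, of which 98.4% had a UMI. In library 4 the interferon-induced gene Gbp2 stood at 1322 CPM against 33.4, 0 and 23.0, and Cxcl10, an interferon-induced chemokine, at 3138 against 119, 142 and 125. Endothelial cells of library 4 had 1236 CPM of Gbp2 and 2669 of Cxcl10, so the members' levels were near those of another cell type of the library, and that of S100a8 in library 2 was below. A list of 12 interferon-response genes took 0.811% of UMIs in library 4 and 0.0794%, 0.0283% and 0.0523% in libraries 1 to 3. Because of this, comparisons with other macrophages are given over all libraries and within libraries 1 and 3.

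The first comparison was with 514 Folr2 macrophages, cells that met the same rule on C1qa, Cxcl9, Mki67, Cd3e and Cdh5 and had at least 1 Folr2 UMI, with or without Cx3cr1. They numbered 108, 79, 289 and 38 in library order and had a median of 14914.5 UMIs. MHC class II genes and Ccr2 were higher in the members, and genes of resident macrophages, 5 chemokines and Hmox1 were lower. Of 3089 genes with a UMI in at least 10% of cells and 50 CPM on either side, 22 were at least 2-fold higher in the members (0.712%) and 57 at least 2-fold lower (1.85%), on the scale of log2(CPM + 10). The median over all genes was −0.06 log2 units, and in libraries 1 and 3 alike 21 of the 22 and 44 of the 57 kept their direction. Ratios were calculated in each library too: 72.2% of the genes had the same sign in both, and 15 genes were at least 2-fold higher in both, which was 34.9% of the 43 in library 1 and 71.4% of the 21 in library 3. For lower genes, 26 were shared, 38.2% of 68 and 83.9% of 31. The correlation of the ratios between the libraries was 0.63 across genes, which are not independent and include background RNA shared within a library. With library 3 left out, 57 genes were at least 2-fold higher over the remaining cells and 89 lower. Without subcluster 5, described below, 26 were higher and 103 lower.

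The class II list held 5 of the 22 higher genes, out of 7 that passed the filter and 10 listed, with a median of 1.51 log2 units. H2-Aa (chr17:34282744-34287823, minus strand) encodes the alpha chain of the I-A molecule. It stood at 9665, 1274, 4516 and 4117 CPM in members of libraries 1 to 4, against 4151, 231, 971 and 4328 CPM in Folr2 macrophages. The members were higher in libraries 1, 2 and 3 and near equal in library 4, giving 2.99-fold over all cells, 2.32-fold in library 1 and 4.61-fold in library 3. H2-Eb1 (chr17:34305867-34316674, plus strand), the beta chain of I-E, stood at 9193, 1197, 4331 and 3105 CPM against 3750, 237, 808 and 3006. Its ratio was 3.42-fold over all cells, 2.45-fold in library 1 and 5.31-fold in library 3. H2-Ab1, the beta chain of I-A, was 2.92-fold higher, Cd74, the invariant chain that guides class II molecules through the cell, 2.85-fold, and H2-DMb1, which helps load peptides, 2.13-fold.

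Ciita, the coactivator that class II genes need, stood at 90.3, 0, 49.4 and 45.4 CPM in members and at 45.1, 0, 16.7 and 71.6 in Folr2 macrophages. Its ratio was 1.88-fold over all cells and 2.22-fold in library 3. H2-DMa was 1.63-fold higher, and H2-DMb2, H2-Oa and H2-Ob lay at or below 6.31 CPM and did not pass the filter. In the reference for free RNA, 12.3% of endothelial cells in library 1 and 12.7% in library 3 had an H2-Aa UMI after thinning, against 92.3% and 64.7% of members. Library 4 differed, since 83.7% of its endothelial cells had one. The H2 genes vary between mouse strains and were counted on a C57BL/6J genome, and the part of this in their levels was not tested.

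Class II promoters are shown because H2-Aa, H2-Eb1 and H2-DMb1 were among the 5 class II genes past 2-fold. Class II genes are known to share an X box, bound by the RFX complex, and a Y box, bound by NF-Y, both of which recruit Ciita. RefSeq promoter windows on GRCm38.p6 were matched for 7 of the 10 listed genes, all but H2-Ab1, Cd74 and Ciita. In the 250 bases before each start, on both strands, a Y motif of the letters GATTGG was searched, and an X motif that reads AG, any 2 bases, AC, any 1 base and GAT. These genes had 8 windows, as H2-DMa has more than 1. GATTGG was found in 7 of the 8 windows, not in 1 of those of H2-DMa, and both motifs in those of H2-Eb1, H2-DMb1 and H2-Oa, while 14.6% of all 32851 promoters held GATTGG, 2.24% held the X motif and 0.353% held both. The letters GAT that end the X motif also begin the Y motif, but the matches printed here do not overlap. The 140 bases before the start are given for H2-Aa (chr17:34287824-34287963, minus strand), H2-Eb1 (chr17:34305727-34305866, plus strand) and H2-DMb1 (chr17:34153051-34153190, plus strand), 5′ to 3′ in the direction of the gene, with motif letters in capitals.
H2-Aa: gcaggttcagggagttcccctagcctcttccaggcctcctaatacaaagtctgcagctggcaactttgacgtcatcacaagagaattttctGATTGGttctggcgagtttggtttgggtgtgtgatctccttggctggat
H2-Eb1: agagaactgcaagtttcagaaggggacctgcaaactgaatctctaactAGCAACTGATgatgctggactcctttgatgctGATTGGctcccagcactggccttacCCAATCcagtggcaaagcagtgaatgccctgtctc
H2-DMb1: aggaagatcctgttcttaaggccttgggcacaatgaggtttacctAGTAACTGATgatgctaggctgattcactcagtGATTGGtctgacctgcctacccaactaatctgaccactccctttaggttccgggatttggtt
GATTGG began 49 bases before the start in H2-Aa, 60 in H2-Eb1 and 62 in H2-DMb1. The X motif began 92 bases before the start in H2-Eb1 and 95 in H2-DMb1, and H2-Eb1 held a further Y motif on the other strand, written CCAATC, at 35 bases. In H2-Aa the exact X letters were not in the window, which says nothing about the factor.

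**Figure D2:**
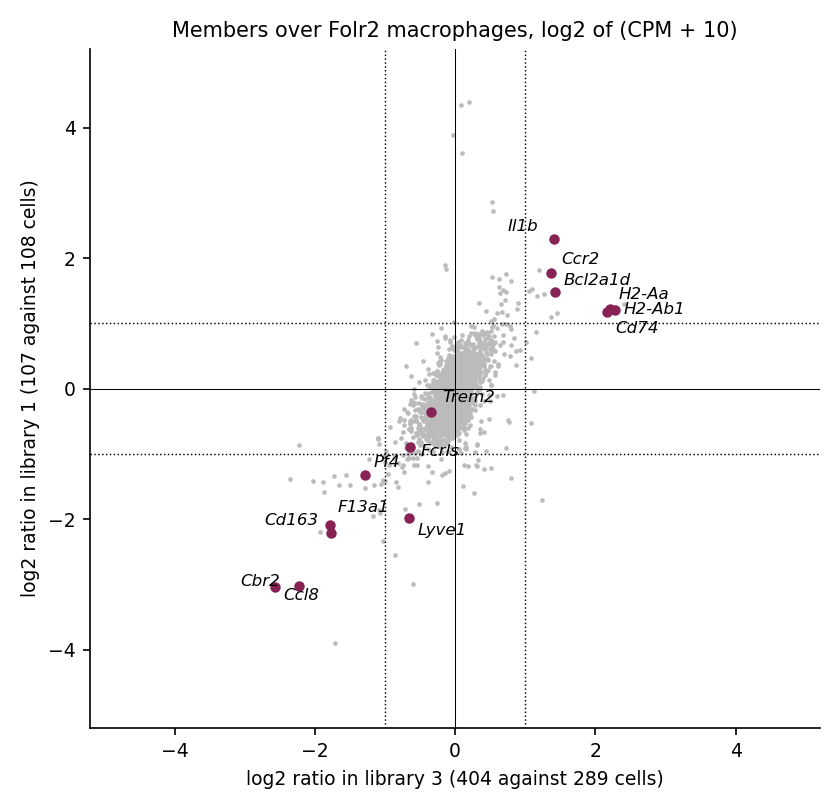
Log2 ratio of members over Folr2 macrophages in library 3 (x axis) and library 1 (y axis), 1 point for each of 3089 genes on the scale of log2(CPM + 10), with dotted lines at 2-fold. H2-Aa, H2-Ab1, Cd74 and Ccr2 lie at the upper right and Ccl8, Cbr2 and Cd163 at the lower left, and 72.2% of genes have the same sign in both libraries.

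Ccr2 (chr9:124101950-124113557, plus strand), the receptor that brings monocytes out of the bone marrow toward Ccl2, was also higher. It stood at 465, 257, 328 and 285 CPM in members and at 129, 56.1, 121 and 142 in Folr2 macrophages. Members were higher in each of the 4 libraries, 2.91-fold over all cells, 3.43-fold in library 1 and 2.57-fold in library 3. After thinning, 56.0% and 52.9% of members in libraries 1 and 3 had a Ccr2 UMI, against 1.05% and 1.31% of the endothelial reference. Ccr2 was on a list of 8 genes of classical monocytes, of which the others that were past 2-fold over all cells, Plac8, Chil3 and Ly6c2, were lower in members, and the median of the list without a filter was −0.56 log2 units. Plac8 was 7.27-fold higher in members of library 1 and 2.64-fold lower over all cells, so its direction rests on the libraries. Ccr2 was thus found in cells that carry Cx3cr1, above the background, with Ly6c2 nearly absent in library 3.

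Il1b, an inflammatory cytokine, stood at 3145, 3809, 1151 and 3825 CPM in members and at 637, 1650, 428 and 1129 in Folr2 macrophages. It was 2.21-fold higher over all cells, 4.88-fold in library 1 and 2.65-fold in library 3. Of the 6 listed cytokines that passed the filter it was the only one past 2-fold, and their median was 0.08 log2 units. Among the leading genes, Dusp2, a phosphatase that acts on MAP kinases, was 2.73-fold higher, Cytip, which binds a regulator of integrins, 2.53-fold, the junction protein F11r 2.37-fold, and Bcl2a1d, a survival gene of the Bcl2 family, 2.33-fold. Hemoglobin genes also led the list, through the single cell of library 1 described above: without it Hbb-bs stood at 46.4 CPM in place of 398.

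Of 13 resident macrophage genes 7 were at least 2-fold lower in the members and none higher, with a median of −1.29 log2 units when no filter on low genes was used. Lyve1, Cbr2, Cd163 and Ccl24 reached the filter only in Folr2 macrophages, where they were high, and of the 6 genes that reached it in members F13a1 and Pf4 were past 2-fold. Cd163, the receptor for hemoglobin bound to haptoglobin, stood at 9.86, 70.8, 5.42 and 0 CPM in members against 82.3, 741, 42.4 and 6.93. Folr2 macrophages were 9.69-fold higher over all cells, with those of library 2 highest at 741 CPM and smaller ratios within libraries 1 and 3. Cbr2, a carbonyl reductase, stood at 12.1, 25.7, 24.7 and 6.48 CPM against 170, 254, 152 and 4.62, with Folr2 macrophages 8.12-fold higher in library 1 and 4.68-fold in library 3. F13a1 was 4.65-fold higher in Folr2 macrophages, 4.26-fold in library 1 and 3.46-fold in library 3. Lyve1, a hyaluronan receptor, stood at 0.759, 0, 2.81 and 0 CPM in members, and its 5.87-fold ratio over all cells was 1.57-fold in library 3, with the Folr2 macrophages of library 2 highest at 298 CPM. Mrc1, the mannose receptor, stood at 380, 586, 383 and 45.4 CPM in members and was 1.42-fold and 1.75-fold higher in Folr2 macrophages of libraries 1 and 3. The members thus kept Mrc1 and Selenop, a selenium carrier at 2041 and 1935 CPM in libraries 1 and 3, while Lyve1, Timd4 and Vsig4 lay at or below 2.29 CPM over all members.

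Ccl8, a ligand of several monocyte receptors, stood at 131, 0, 118 and 169 CPM in members against 1156, 5.24, 754 and 2878 in Folr2 macrophages. The latter were 8.26-fold higher in library 1 and 5.96-fold in library 3. Of 12 chemokines 5 were at least 2-fold lower (Ccl2, Ccl6, Ccl7, Ccl8 and Ccl9), of which Ccl7 and Ccl8 were past 2-fold in both library 1 and library 3 and the others in neither, and the median of the list was −0.32 log2 units. Summed, the list took 0.999% and 0.761% of members' UMIs in libraries 1 and 3 against 0.860% and 0.761% in Folr2 macrophages, so its sum was not lower in library 1 and near equal in library 3. Hmox1, which breaks down heme, stood at 216, 631, 580 and 1225 CPM against 1024, 1432, 2223 and 3203, lower in the members of each library. Slc40a1, the iron exporter, stood at 9.86, 0, 48.3 and 0 CPM against 66.6, 4.49, 121 and 105. These were the 2 of 6 iron and heme genes past 2-fold, with a list median of −0.51, and Slc40a1 reached the filter on low genes only in Folr2 macrophages, where it is high.

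Among 15 genes of lipid-associated macrophages, 2 were at least 2-fold lower in members, Spp1 and Fabp5, and none was higher, with a median of −0.34. Spp1, the secreted protein osteopontin, stood at 929, 4568, 880 and 408 CPM in members against 5493, 587, 1611 and 274. The order of the groups was thus opposite in libraries 2 and 4 to that in libraries 1 and 3. Trem2 and Apoe were near equal over all cells, at 0.983-fold and 1.09-fold, and Fcrls was lower in members within library 1 (1.87-fold) and library 3 (1.56-fold). Fcrls and Trem2, markers of the label, were thus as high or higher in Folr2 macrophages of these libraries. Cardiomyocyte transcripts were lower too, 5 of the 6 listed past 2-fold with a median of −1.47, although 4 of the 6 reached the filter only in Folr2 macrophages: Tnnt2, a part of troponin, stood at 133, 6.43, 54.1 and 6.48 CPM in members and at 362, 16.5, 318 and 6.93 in Folr2 macrophages. The list took 0.158% of UMIs in library 1 and 0.0861% in library 3 of Folr2 macrophages, and its part in the other differences was not tested.

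No gene passed 2-fold among 10 growth factor and cytokine receptors, 5 Fc receptor genes, 10 immediate early and stress genes, 13 transcription factors that passed the filter, or 8 genes known from microglia, whose list medians lay between −0.17 and 0.25 log2 units. With 0.712% of all genes past 2-fold in one direction and 1.85% in the other, a count of 0 in lists of this size is near the background. Among the transcription factors the ratio of members to Folr2 macrophages was 1.66 for Runx3 and 0.727 for Maf. Saa3, Cxcl5, S100a8, Mt2, Retnlg and Ctla2a, which were among the leading lower genes over all cells, had ratios below 2-fold in library 3, while library 2 held 79 Folr2 macrophages and 8 members. Saa3, an acute phase protein, was 7.97-fold lower in members of library 1.

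When the Folr2 macrophages were limited to the 311 that also carried Cx3cr1, 24 of 3054 genes were at least 2-fold higher in members (0.786%) and 34 lower (1.11%). The same 5 class II genes, Ccr2 and Il1b were among the higher ones, and Cbr2, Ccl8, Cd163, F13a1 and Hmox1 among the lower. Both sides carried Cx3cr1 in this comparison. All 6 cardiomyocyte genes were at least 2-fold lower here, of which Myl2 and Tnnt2 reached the filter on low genes in members. Myh6, Tnni3, Mb and Actc1, like Cbr2 and Cd163, reached it only in Folr2 macrophages, where they were high.

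Class II transcripts varied widely among the members. The 10 genes were summed in each cell after thinning to 5000 UMIs, which 473 members reached and 56 did not. In library 1 the lower quartile, median and upper quartile of 91 cells were 3.04%, 5.54% and 7.65% of UMIs. In library 3 those of 365 cells were 0.0600%, 1.14% and 4.96%, with a highest value of 12.3%. In library 3, 158 cells (43.3%) lay over 2%, 153 (41.9%) under 0.5% and 54 (14.8%) between. In library 1, 75 (82.4%) lay over 2%, 10 (11.0%) under 0.5% and 6 between. The cells of library 3 had a peak at the low end, and those over 2% were spread up to 12.3%. With 18 cells within 20% of the upper limit and 15 within 20% of the lower, these are ranges of a score and not types of cell. In Folr2 macrophages, 47.4% of 95 cells in library 1 and 11.8% of 263 in library 3 lay over 2%, so in both libraries a larger share of members was high. In C1q macrophages without Cx3cr1 or Folr2 30 of 50 cells and 20 of 57 lay over 2%.

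**Figure D3:**
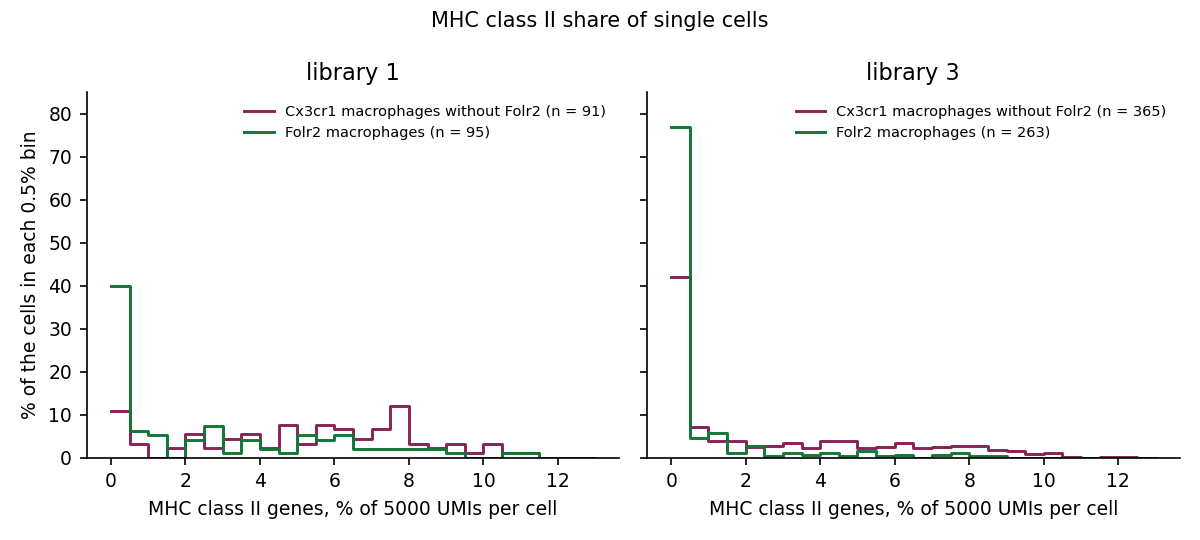
Share of cells (y axis, percent in each bin of 0.5%) by the percent of UMIs from 10 MHC class II genes (x axis), in members and Folr2 macrophages of libraries 1 and 3 after thinning to 5000 UMIs. Members over 2% make up 82.4% of 91 cells in library 1 and 43.3% of 365 in library 3, and Folr2 macrophages 47.4% and 11.8%.

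Members over 2% and under 0.5% were then set side by side, a split chosen after the values were seen. Class II genes and the 7 genes of the rule were left out, as was any test. In library 3, 14 of 3056 genes were at least 2-fold higher in the class II high cells (0.458%) and 47 lower (1.54%). Of these, 12 and 36 had the same sign in library 1, where 1731 of all 3056 genes did, and where the low side was only 10 cells. The median depth of the high and low cells in library 3 was 13617.5 and 13582 UMIs.

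Ccr2 stood at 533 CPM in class II high and 152 CPM in class II low members of library 3, and at 547 and 60 in library 1. Mgl2, a lectin of macrophages and dendritic cells, stood at 119 and 14.4 CPM in library 3 and at 96.0 and 0 in library 1. Tnip3, an inhibitor of NF-κB signalling, stood at 138 and 19.6 CPM, and Plbd1 at 232 and 68.0. Clec4b1, a further lectin, Napsa, an aspartic protease, Traf1 and Bcl2a1d were 2.25-fold to 4.36-fold higher in library 3 and 2.82-fold to 3.65-fold in library 1. The dendritic marker Flt3 stood at 6.33 and 0 CPM, and Ly6c2 at 0 in both parts of library 3. Mgl2 and Tnip3 lay below the filter of 50 CPM in the low cells of library 3, so they were counted only through the high cells. Class II high members thus carried more Ccr2, with Flt3 near 0.

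Of the listed genes of lipid-associated macrophages, Ctsd, Spp1, Fabp5 and Gpnmb were at least 2-fold higher in class II low members of both libraries, as was Fcrls. Fcrls stood at 554 CPM in the high and 1574 in the low cells of library 3, and at 419 and 1220 in library 1. Ctsd, a lysosomal protease, stood at 935 and 3284 CPM in library 3 and at 869 and 3400 in library 1. Spp1 (chr5:104435118-104441050, plus strand) stood at 238 and 997 CPM and at 371 and 4100 in the same order. Fcrls, Ctsd and Spp1 were thus higher in class II low cells of both libraries. Subcluster 4, described below, had 3572 CPM of Spp1, and 37 of its 58 thinned cells were class II low. Its part in the Spp1 difference was not tested. Fabp5, a fatty acid binding protein, was 3.89-fold and 6.03-fold higher in the low cells of libraries 3 and 1, Gpnmb, a glycoprotein of lysosomes, 3.34-fold and 10.4-fold, and Trem2 1.92-fold and 2.10-fold. Lpl, a lipase, at 1.46-fold and Cd9, a tetraspanin, at 1.02-fold did not pass 2-fold in library 3. Mgp, Ctgf and Sox4 were also among the higher genes of the low cells, and fibroblast genes took 0.254% of their UMIs against 0.137% in the high cells of library 3. In library 1 fibroblast genes took 0.544% against 0.137%. Erythroid genes took 7.27% against 0.0259% there, as the cell with most hemoglobin is among the low cells.

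Resident macrophage genes took 0.276% of UMIs in the high and 0.551% in the low cells of library 3, and 0.326% and 0.530% in library 1. Gas6, a ligand that bridges dying cells to their receptors, was 2.61-fold and 4.27-fold higher in the low cells of libraries 3 and 1, and Igf1, a growth factor, 2.49-fold and 2.86-fold. F13a1 was 3.16-fold and 1.43-fold higher, whereas Pf4, at 3.06-fold in library 3, went the other way in library 1.

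C1qb and Csf1r were near equal between the parts. Cx3cr1 was too, but the rule used it, so its level is only a description. Cx3cr1 stood at 504 and 494 CPM in the high and low cells of library 3, C1qb at 6766 and 7353, and Csf1r at 897 and 1061. In Folr2 macrophages split by the same limits, Ccr2 stood at 381 and 110 CPM in the high and low cells of library 3 and at 138 and 89.5 in library 1, and Ctsd at 1284 and 4085 and at 964 and 5300. Class II high members of library 1 had 547 CPM of Ccr2 against 138 in class II high Folr2 macrophages, and those of library 3 had 533 against 381. Mrc1 stood at 376 and 308 CPM in class II high members of libraries 1 and 3, against 858 and 697 in class II high Folr2 macrophages.

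**Figure D4:**
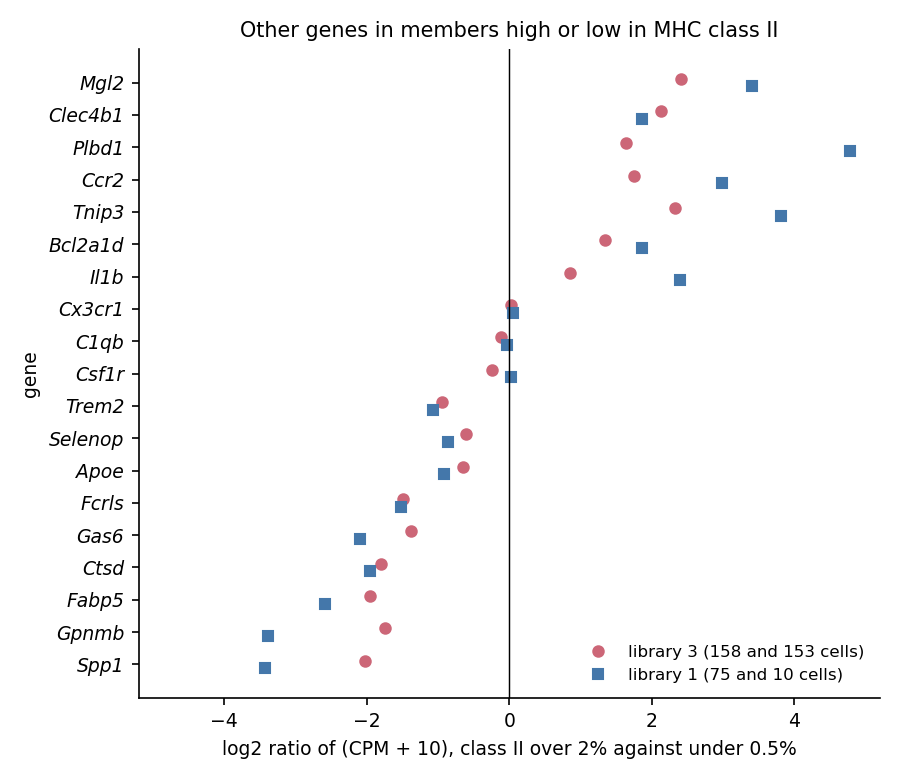
Log2 ratio (x axis, on the scale of CPM + 10) of members with over 2% class II UMIs over members with under 0.5%, for named genes (y axis) in library 3 (158 and 153 cells) and library 1 (75 and 10 cells), after thinning to 5000 UMIs. Ccr2 and Mgl2 lie to the right of 0 and Fcrls, Ctsd and Spp1 to the left in both libraries. C1qb lies near 0, as does Cx3cr1, which the rule used and which is shown only as a description.

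Members were also grouped by their number of Cx3cr1 UMIs after thinning, which can be 0 because thinning removes UMIs. In library 3, Fcrls stood at 629, 969, 1105 and 1367 CPM in cells with 0, 1, 2 or 3, and 4 or more Cx3cr1 UMIs (56, 91, 120 and 98 cells). Mrc1 stood at 296, 376, 432 and 488 CPM in the same steps. H2-Aa stood at 4286, 4855, 5428 and 4447 CPM and Trem2 at 646, 802, 710 and 798, without an order. In library 1 Fcrls was lowest, at 253 CPM, in the 19 cells with 0 UMIs, and the other steps had no order.

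Clustering of the members without the genes of the rule gave 5 subclusters, which are called by number and leading genes. Subcluster 1 (160 cells, of which 34, 4, 122 and 0 were in libraries 1 to 4) was led by Tnip3, Bcl2a1d, Tnfsf9, a ligand of the TNF family, and Il1b, which stood at 3527 CPM against 820 in the other members. Subcluster 2 (158 cells, 25, 0, 123 and 10) was led by hemoglobin genes, which come mostly from the single cell described above, and then by Ly6a at 527 CPM, Rgs5 at 182 and Gbp2 at 150. It held all 10 members of library 4, which carried 81.9% of its Gbp2 UMIs. Subcluster 3 (131 cells, 41, 0, 90 and 0) was led by the heat shock gene Hspa1a at 2770 CPM against 643, with Atf3, Jun, Fos and Egr1, immediate early genes. Subcluster 4 (61 cells, 4, 4, 53 and 0) had Spp1 among its leading genes, at 3572 CPM against 369, with Cxcl3, F10 and Fabp5.

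Subcluster 5 (19 cells, 3, 0, 16 and 0) was led by Dcn, Col1a2, Col1a1, Mgp and Col3a1, which are genes of fibroblasts. Dcn stood at 7518 CPM in it against 106 in the other members, and every one of its cells had a Dcn UMI. Its median depth was 26877 UMIs against 11254 to 21713 in the others, and it was 3.59% of members. Without it, fibroblast genes took 0.0761% of UMIs in place of 0.302%, H2-Aa stood at 5687 CPM in place of 5408 and Fcrls at 903 in place of 853. A simulation of doublets was set to mark 5% of the passing cells of each library, so its shares are not measured doublet rates. It marked 3.59% of members, 3.89% of Folr2 macrophages, 8.80% of Cxcl9 macrophages and 2.50% of the C1q macrophages without Cx3cr1 or Folr2. The marked members are as many as the cells of subcluster 5, but the overlap of the 2 sets is not given here. Doublets were kept because the rule has no such step, and whether the cells of subcluster 5 are doublets was not tested.

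Median class II shares were 5.04%, 2.39%, 1.77%, 0.120% and 0.180% in subclusters 1 to 5. Subcluster 1 had 106 of 157 thinned cells over 2% and subcluster 4 had 9 of 58. Class II high and low cells were found in each subcluster, with the low ones most frequent in subclusters 4 and 5.

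**Figure D5:**
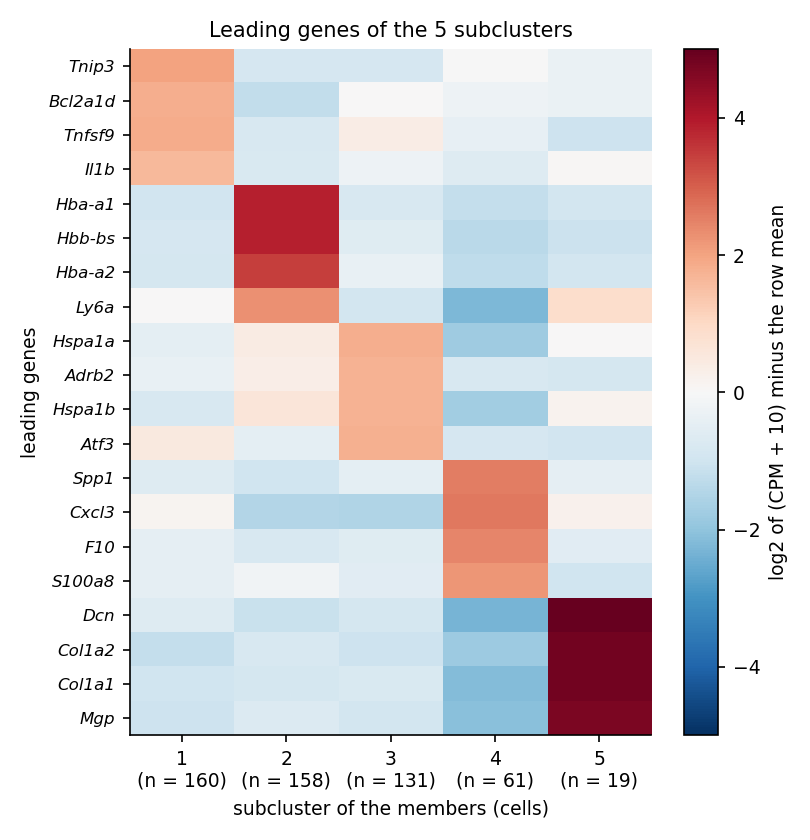
Leading genes (rows) in the 5 subclusters of the members (columns), with colour for log2(CPM + 10) minus the mean of the row. Il1b reaches 3527 CPM in subcluster 1, Hspa1a 2770 in subcluster 3, Spp1 3572 in subcluster 4 and Dcn 7518 in subcluster 5.

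The members were compared next with 521 C1q macrophages that met the same rule but had 0 Cx3cr1 UMIs, 91, 108, 91 and 231 in library order. Fcrls, Ighm and Cd72 were higher in members and Cxcl3 lower, in both libraries with many members. Over all cells 123 of 3188 genes were at least 2-fold higher (3.86%) and 208 lower (6.52%). Most of the comparison cells lay in libraries 2 and 4, and with libraries weighted equally the counts were 15 and 51. The comparison cells of library 1 were also shallower, with a median of 7756 UMIs against 12492, and the part of depth in this comparison was not tested. Fcrls was 1.76-fold and 1.70-fold higher in the members of libraries 1 and 3, Cd72, an inhibitory receptor, 1.64-fold and 2.98-fold, Gpr34, a receptor for lysophosphatidylserine, 2.11-fold and 2.25-fold, and Gpr183, an oxysterol receptor, 2.60-fold and 1.92-fold. Class II genes and Ccr2 did not pass 2-fold over all cells here: 0 of 7 class II genes did, with a median of 0.39 log2 units, and Ccr2 was higher by 0.26 log2 units (2.00-fold in library 1 and 1.87-fold in library 3). Cxcl3, a neutrophil chemokine, was 10.7-fold lower in members of library 1 and 2.53-fold in library 3.

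Ighm, the heavy chain of IgM, was among the leading genes of this comparison, 1.65-fold and 2.22-fold higher in libraries 1 and 3. It stood at 243, 19.3, 214 and 19.4 CPM in members and had a UMI in 74.3% of them. After thinning the share was 67.0% in library 1 and 57.8% in library 3, against 0.855% and 1.75% of the endothelial reference. It was therefore above background in the members while, of the B cell genes, Cd79a and Ms4a1 were at or below 1.00 CPM and Cd79b stood at 33.4. A 3′ tag does not say whether the transcript can encode a heavy chain.

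Against 2046 Cxcl9 macrophages, cells with at least 5 Cxcl9 UMIs, more genes were past 2-fold than against Folr2 macrophages or C1q macrophages without Cx3cr1 or Folr2. Library 4 held 2037 of these cells and 10 of the 529 members, so the group and the library cannot be told apart. Of 3323 genes, 280 were at least 2-fold higher in members (8.43%) and 346 lower (10.4%). Fcrls was 67.2-fold higher, Apoe 17.8-fold (34128 against 1911 CPM) and Pf4, a platelet-type chemokine of macrophages, 14.4-fold, while Gbp2 was 23.2-fold lower. Without a filter on low genes, 8 of 13 genes known from microglia and 7 of 13 of resident macrophages were at least 2-fold higher, with medians of 1.53 and 1.33 log2 units. In the other direction 11 of 12 interferon-response and 8 of 8 glycolysis genes were lower, with medians of −2.21 and −1.76, beside −0.13 over all genes that passed the filter. Of these, 6 interferon-response and 2 glycolysis genes reached the filter only in Cxcl9 macrophages. Among the higher genes, 5 known from microglia and 4 of resident macrophages reached it only in members, and 3 and 2 on both sides. Of 7 class II genes, H2-DMa and H2-DMb1 were lower in members and none was higher past 2-fold, and Ccr2 was 1.10-fold higher. The 10 members of library 4 lay near the Cxcl9 macrophages of that library, with log2 ratios of −0.14 for Gbp2 and 0.08 for Ly6a. Fcrls and Apoe were still higher in them, by 2.31 and 1.90 log2 units, on 7 Fcrls UMIs.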

How the data were processed

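The authors deposited raw UMI counts of 30905 genes as 1 merged matrix, without normalization. The submitters' processing notes name CASAVA 1.8, Cell Ranger, Seurat and mm10, and the matrix header gives software version 3.0.0. Total counts per library were 96020294 to 166079145, and whether the merging step evened out depth is not given in the sources used here.

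The filter on cells followed the study's methods (over 200 genes, mitochondrial share under 20%), after which the 13 genes of the mitochondrial genome were dropped. Groups of cells were defined by UMI counts as given above. Each group was summed, overall and by library, and divided by its total UMIs. Ratios used log2(CPM + 10), and genes needed a UMI in 10% of cells and 50 CPM on either side. Thinning drew 5000 UMIs per cell at random with seed 20, and shallower cells were left out. For subclusters, 2000 variable genes without those of the rule, 10 principal components, a graph of 30 neighbours and the Leiden method at resolution 0.5 were used. Doublets were marked per library by simulation (5% of cells, 50 neighbours) and kept, as the study's own doublet step is no part of the rule.

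The members, the 29 gene lists and the comparisons were chosen with earlier results of these data known. Named genes were the 12 with the largest ratio in each direction whose sign was the same in every library with at least 30 cells on both sides, genes of the lists, and 8 leading genes per subcluster. Rik, Gm and ribosomal protein genes were counted and not named, and some genes that meet this rule are not reported here. Of 243 list entries 3 were not used: Itgam and Aldoa, whose symbols name more than 1 gene in the matrix, and Areg, which did not match. Coordinates are those of an mm10 gene annotation. As no source used here maps the 4 libraries to grafts, the matrix was treated as 1 sample, values are given by library, and no p-value was calculated. Alternatives were other limits of the rule, doublets left out, thinning, per-cell means, equal weight of libraries, other added CPM, another total, no filter on low genes and each library left out. The steps were tested on simulated data. Python 3.11.15, numpy 2.4.6, scipy 1.17.1, pandas 2.3.3, scikit-learn 1.9.0, igraph 0.11.9, leidenalg 0.10.2 and matplotlib 3.10.9 were used.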

Additional observations from a re-analysis of the deposited data

How the results depend on the processing

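Of 133 alternative values for 9 results, 109 stayed within 1.5 times the value given and 24 did not. The number of members, 529, ran from 125 to 521 with each library left out in turn, lowest without library 3. Genes higher than in Folr2 macrophages (22) ran from 18 to 57 and lower genes (57) from 44 to 89, both highest without library 3. The higher genes numbered 14 after thinning and 12 with 50 CPM added, and the lower genes 32 with 50 CPM added. Choices made after seeing the data gave 47 higher genes in library 1 alone, and 33 lower genes in library 3 alone, 34 against Folr2 macrophages with Cx3cr1 and 103 without subcluster 5. The filter on low genes was applied anew in each of these, so counts for single libraries differ from those over the 3089 genes above. Higher genes made up 27.8% of the genes past 2-fold, 46.5% with libraries weighted equally and 39.0% without library 3. H2-Aa stayed 2.32-fold to 4.61-fold and Ccr2 2.44-fold to 3.78-fold higher in members under all of these settings.

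Against Cxcl9 macrophages, higher genes (280) numbered 155 with 50 CPM added and 544 without a filter on low genes, and lower genes (346) 228 with 50 CPM added. With each library left out they ran from 183 to 288 and from 215 to 355, lowest without library 4. Higher genes made up 44.7% of the genes past 2-fold, 56.4% without the filter. No library held enough of these cells beside members for equal weights, so that value was not run.

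Against C1q macrophages without Cx3cr1 or Folr2, higher genes (123) numbered 15 with libraries weighted equally, 55 with 50 CPM added, 186 without the filter, 40 in library 3 alone and 28 in library 1 alone. Lower genes (208) numbered 51, 138 with 50 CPM added, 42 in library 3 alone and 89 in library 1 alone. With each library left out they ran from 91 to 173 and from 150 to 231. Higher genes made up 37.2% of the genes past 2-fold, 22.7% with equal weights, 48.8% in library 3 alone and 23.9% in library 1 alone. With 10 CPM added to each sum, 5 lists differed at least 2-fold from Folr2 macrophages (class II, NK cell, cardiomyocyte, granulocyte and erythroid), and the number ran from 5 to 6 with each library left out. Erythroid UMIs came mostly from 1 cell, no NK cell gene had a UMI in 10% of members, and the granulocyte share of members was 0.178 times that of Folr2 macrophages over all cells but 0.928 times in library 3 and higher in library 1. Subclusters numbered 4, 5 and 7 at resolutions 0.3, 0.5 and 1.0.

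No paired analysis was possible because no result here comes from a test: no source used here matches a library of the merged matrix to a labelled sample, and groups of cells are set side by side within libraries instead. Libraries 2 and 4 held 8 and 10 members, so comparisons there of genes with few UMIs rest on few molecules and are given as description.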

Other observations

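Several receptors and growth factor genes have not been described above. Axl, a receptor for dying cells, stood at 233, 64.3, 166 and 227 CPM in the members of libraries 1 to 4 and at 143, 65.1, 91.5 and 42.7 CPM in Folr2 macrophages. Stab1, a scavenger receptor, went the other way in libraries 1 and 3, at 283 and 433 CPM in members against 612 and 702. Gdf15, a stress-induced hormone of the TGF-beta family, stood at 349, 77.2, 622 and 0 CPM in members and had a UMI in 40.3% of them. Pdgfb, a growth factor for fibroblasts and pericytes, stood at 49.3, 77.2, 115 and 123 CPM. Runx3, a transcription factor, stood at 178, 90.1, 154 and 175 CPM against 73.8, 83.1, 98.7 and 95.9 in Folr2 macrophages, higher in each library.

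Glycolysis genes took 0.172%, 0.833%, 0.268% and 0.821% of the members' UMIs in library order, so libraries 2 and 4 were higher than libraries 1 and 3. Gapdh, the most abundant of them, stood at 906, 3500, 1324 and 4402 CPM. Resident macrophage genes took 0.355%, 0.509%, 0.417% and 0.0558% of UMIs, lowest in library 4. These values belong to libraries whose grafts are not known here.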
